A study of Homo sapiens with 12 samples.

Results

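The nuclear genes for subunits of respiratory complexes I to IV were examined in HK-2, which the labels describe as immortalized epithelial cells of the human renal proximal tubule. The list holds 49 genes, of which 33 encode complex I subunits (names beginning NDUF), 4 complex II (SDH), 6 complex III (UQCR) and 6 complex IV (COX). Each gene was read from 1 probe set, the one with the highest mean over the 12 arrays among the probe sets that name a single gene. A probe set of this kind was found for 44 of the 49, and all 44 passed the level set for testing, a log2 value of at least 4 on 3 or more arrays. They were 31 genes of complex I, 3 of complex II, 4 of complex III and 6 of complex IV, out of 10784 genes tested and 19775 with a single-gene probe set. NDUFS5, NDUFS8 and UQCRH had only probe sets shared with other genes, and no probe set was named for SDHB or UQCRFS1 here.

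The arrays fall into 4 groups of 3: cells given the compound labelled Fk for 12 h or 48 h, and cells given only the vehicle (control) for 12 h or 48 h. All cells were seeded 24 h before treatment, in a medium with 5 mM glucose and added growth factor, hydrocortisone, insulin, transferrin and selenite, so both the control and the Fk cultures carried these additions. The labels do not say what Fk abbreviates, and its dose was not used here. The arrays of a group are called biological replicates without further detail, so p-values measure the spread between these arrays, which may be technical. HK-2 is a single immortalized line. Of 13 epithelial and proximal tubule markers with a probe set, 7 reached the level, among them KRT18 (mean log2 value 13.10) and PAX8 (10.89), while the tubule transport and brush border genes LRP2 (2.92), AQP1 (2.44), ANPEP (2.97) and SLC5A2 (2.23) stayed below it. The fibroblast matrix genes COL1A1 (8.08), DCN (9.18) and LUM (9.36) reached it, 3 of 5 on that list, and COL1A2 (2.95) and PDGFRB (2.43) did not. Of the other lists, PECAM1 of 3 endothelial genes and AQP2 of 4 distal tubule and podocyte genes reached it, at means of 3.97 and 4.23, and none of 3 leukocyte genes and 1 red blood cell gene did.

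Complexes I and II pass electrons from NADH and succinate to coenzyme Q, complex III passes them on to cytochrome c, and complex IV gives them to oxygen. Complexes I, III and IV pump protons across the inner mitochondrial membrane, and ATP synthase uses the gradient. Most subunits are nuclear genes, made in the cytosol and imported, while a small set is encoded in mitochondrial DNA. Proximal tubule cells of the kidney rely heavily on this pathway, since their transport of solutes consumes much ATP. In complex I, the core subunits carry the flavin and iron-sulfur clusters or the proton path, and the many accessory subunits surround them and are needed for assembly and stability.

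At 12 h, none of the 44 subunit genes passed the adjusted threshold between Fk and control, though the arrays of 10 did not overlap. Their differences were small, from a log2 value of -0.32 for SDHA to +0.17 for SDHD. Of the 44, 30 were lower and 14 higher in Fk, with a median difference of -0.06, against +0.01 over all genes tested, of which 46.8% were lower. The median was -0.004 without Fk 12 h replicate 1 and -0.02 without replicate 2. The medians by complex were -0.07 for complex I, -0.12 for II, -0.05 for III and -0.02 for IV. With 1 array left out the median of complex I stayed negative, from -0.13 without Fk 12 h replicate 3 to -0.02 without Fk 12 h replicate 1. That of complex III turned to +0.01 without Fk 12 h replicate 1, Fk 12 h replicate 2 or control 12 h replicate 2, and that of complex IV to +0.06, +0.03 and +0.003 without Fk 12 h replicate 1, Fk 12 h replicate 2 or control 12 h replicate 3. Without Fk 12 h replicate 3 both were -0.15.

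By limma with Benjamini-Hochberg adjustment over all genes, 0 of 44 had an adjusted p under 0.05, beside 0% of the 10784 genes. At an unadjusted p under 0.05 the count was again 0 of 44, while 6.71% of all genes passed. The 3 Fk arrays all lay below the 3 control arrays for 7 members (15.9%), beside 6.49% of all genes, and all above them for 3 members (6.82%), beside 9.91%. The 7 were NDUFB9, NDUFS1, NDUFS6, SDHA, SDHC, UQCRC2 and COX8A, and the 3 were NDUFA10, SDHD and COX7B.

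SDHA, the flavoprotein that oxidizes succinate, read 10.45, 10.41 and 10.50 with Fk and 10.70, 10.86 and 10.77 in control. The groups did not overlap, and the difference was -0.32 (SE 0.17, n = 3 per group, limma adjusted p = 0.771). SDHD, a membrane anchor of the same complex, read 11.63, 11.92 and 11.77 with Fk and 11.60, 11.62 and 11.59 in control. Every Fk array was above every control array, narrowly for replicate 1. The difference was +0.17 (SE 0.11, limma adjusted p = 0.791), so SDHA and SDHD differed in opposite directions.

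NDUFS6, a zinc-binding accessory subunit of complex I, read 11.73, 11.79 and 11.83 with Fk and 11.97, 12.05 and 11.87 in control, a difference of -0.18 (SE 0.10, limma adjusted p = 0.778). NDUFS1, the largest iron-sulfur core subunit, read 11.10, 11.11 and 11.17 against 11.40, 11.22 and 11.31, a difference of -0.18 (SE 0.12). NDUFB9, an accessory subunit of the membrane arm, read 12.75, 12.63 and 12.77 against 12.99, 12.90 and 12.93, a difference of -0.22 (SE 0.13). In each of these the highest Fk array was under the lowest control array, and none passed the adjusted threshold.

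In complex III, UQCRC2, a core protein, read 10.84, 10.92 and 11.06 with Fk and 11.09, 11.10 and 11.22 in control, a difference of -0.20 (SE 0.14, limma adjusted p = 0.800). In complex IV, the small subunit gene COX8A read 12.40, 12.33 and 12.45 against 12.53, 12.69 and 12.71, a difference of -0.25 (SE 0.15, limma adjusted p = 0.789). Neither gene's groups overlapped, but the nearest arrays were close.

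The intervals limit how large an Fk effect on these genes could be. The 95% interval of limma lay within 1.5-fold in either direction for 40 of the 44 genes at 12 h, beside 44.6% of all genes, and within 2-fold for all 44, beside 79.3%. The 4 that reached past 1.5-fold were NDUFA2, NDUFB3, NDUFV3 and SDHA. At 48 h the counts were 41 within 1.5-fold, beside 46.4% of all genes, and again 44 within 2-fold, beside 82.7%. NDUFA2, NDUFA5 and NDUFB3 lay outside the narrower limit. At both times the median half-width of the interval was 0.292 for the members and 0.447 for all genes. These shares therefore depend on precision as well as on effect size.

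**Figure D1:**
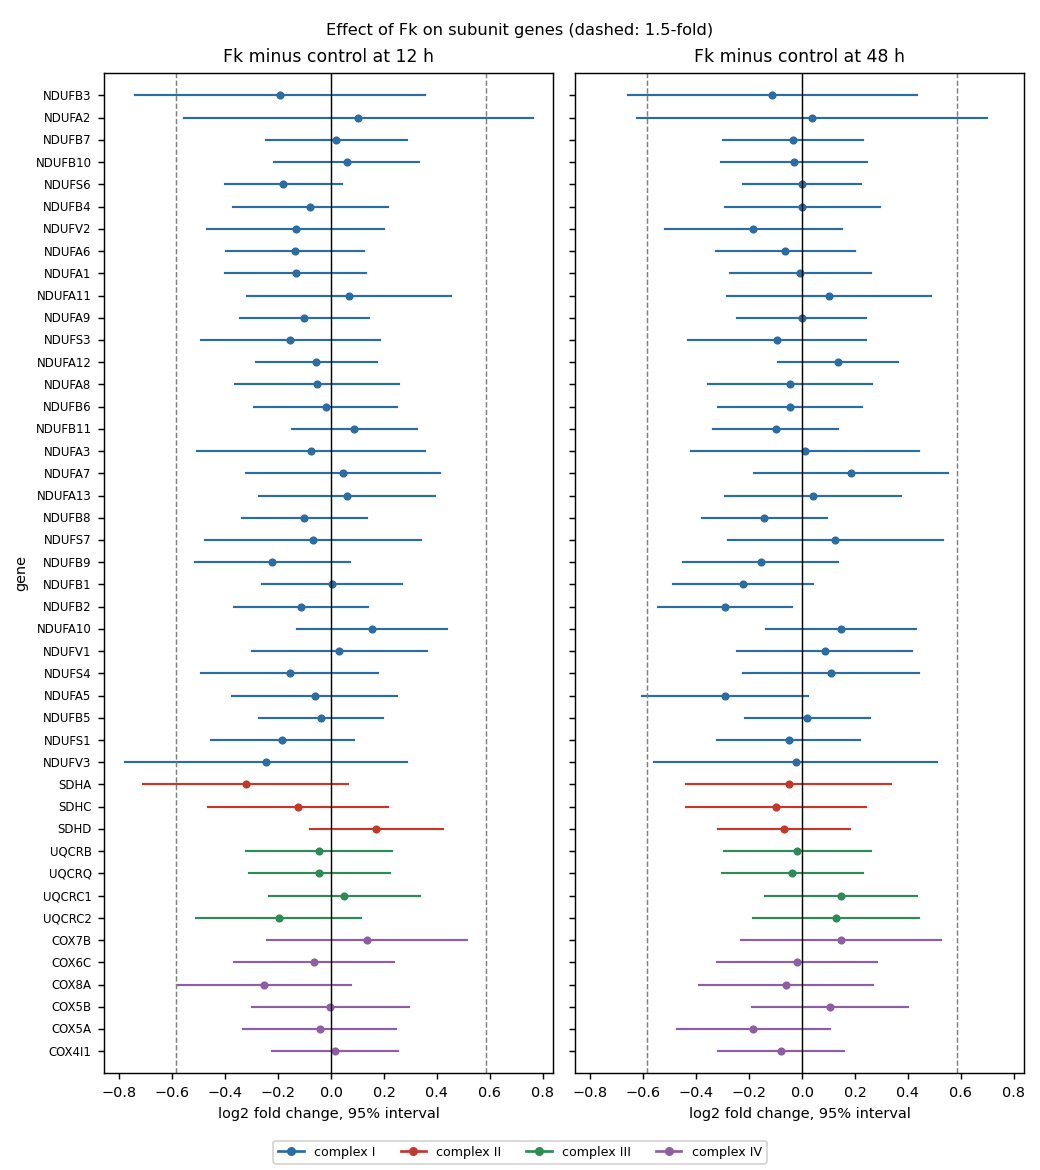
Log2 fold change, Fk minus control, of each of the 44 subunit genes at 12 h (left) and 48 h (right); points are limma estimates from 3 arrays per group, bars their 95% intervals, colours the complex, and dashed lines 1.5-fold. All intervals but that of NDUFB2 at 48 h cross 0, and 40 at 12 h and 41 at 48 h stay inside the dashed lines.

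Fk 12 h replicate 3 stood apart. It correlated with the other 2 arrays of its group at 0.942 and 0.946 over the genes tested, while those 2 correlated at 0.994. A control probe set for 28S ribosomal RNA read 14.38 on it and at most 10.29 on the other 11 arrays. On this array 40 of the 44 subunit genes were above the mean of replicates 1 and 2, by a median of 0.21 over the 44 and by at most 0.60. None was over 1 log2 unit away, whereas 15.4% of all genes were.

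Without that array, 39 of 44 subunit genes were lower in Fk, beside 44.1% of all genes, and the median was -0.15, against +0.03 over all genes. The remaining 2 Fk arrays lay below all 3 control arrays for 27 members (61.4%), beside 15.5% of all genes, and above them for 3 (6.82%), beside 21.7%. Many members varied together over these few arrays, so their counts are not independent observations of an Fk effect. Unadjusted p was under 0.05 for 2, NDUFS3 (-0.32, SE 0.12) and NDUFS4 (-0.31, SE 0.12), and 7.88% of all genes passed that limit. Neither passed after adjustment, with a lowest limma adjusted p of 0.554 among the members. NDUFS3, a core subunit, read 9.83, 9.92 and 10.37 with Fk and 10.09, 10.25 and 10.24 in control, so replicate 3 was the one Fk array above the control arrays.

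At 48 h, again none of the subunit genes passed the adjusted threshold, and the arrays of 4 did not overlap. Of the 44, 28 were lower and 16 higher in Fk, with a median of -0.03, against +0.02 over all genes, of which 46.2% were lower. The range ran from -0.29 for NDUFA5 to +0.19 for NDUFA7. Medians were -0.02 for complex I, -0.07 for II, +0.06 for III and -0.04 for IV. Those of complexes I, II and IV changed sign with single arrays. They were +0.01, +0.02 and +0.08 without Fk 48 h replicate 1 and +0.02, +0.03 and +0.04 without control 48 h replicate 3, and complex I was at +0.01 without control 48 h replicate 1. With 1 array left out, the median of complex III stayed positive, between +0.01 and +0.10.

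The limma test called 0 of 44, beside 0% of all genes. Unadjusted p was under 0.05 for 1 member, NDUFB2, which is 2.27%, beside 5.18% of all genes. The Fk arrays lay below all control arrays for 3 members (6.82%), beside 4.02% of genes, and above them for 1 (2.27%), beside 6.14%. These were NDUFA5, NDUFB2 and COX5A on the lower side and NDUFA12 on the higher. The median of the 44 turned positive without Fk 48 h replicate 1 (+0.03) or without control 48 h replicate 3 (+0.03).

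NDUFB2, an accessory subunit of the membrane arm, read 12.58, 12.62 and 12.67 with Fk and 13.06, 12.76 and 12.93 in control. The highest Fk array was below the lowest control array, and the difference was -0.29 (SE 0.11, limma adjusted p = 0.904). NDUFB2 had 2 further probe sets, with mean log2 values of 11.71 and 5.04, against 12.82 for the one used. They gave -0.36 and, on the dim one, -0.76, with limma adjusted p-values of 0.681 and 0.712 over all probe sets. At 12 h the probe set used gave -0.11, with Fk at 12.76, 12.71 and 12.95 and control at 12.93, 12.98 and 12.85, which overlap.

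NDUFA5, an accessory subunit of the peripheral arm, read 10.54, 10.89 and 10.88 with Fk and 10.94, 11.17 and 11.07 in control, a difference of -0.29 (SE 0.14). NDUFB1, in the membrane arm, read 12.03, 12.08 and 12.23 against 12.39, 12.21 and 12.41, a difference of -0.22 (SE 0.12) with overlapping arrays. NDUFA7 read 9.60, 9.67 and 9.57 against 9.62, 9.13 and 9.54, a difference of +0.19 (SE 0.17). Control replicate 2 was the lowest of these 6 NDUFA7 values, and the other 5 lay close together.

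Outside complex I, COX5A, an accessory subunit of cytochrome c oxidase, read 12.57, 12.61 and 12.66 with Fk and 12.91, 12.76 and 12.72 in control, a difference of -0.18 (SE 0.13, limma adjusted p = 1.000). SDHC, the other membrane anchor of complex II, read 11.41, 11.64 and 11.91 against 11.71, 11.54 and 12.01, a difference of -0.10 (SE 0.15). UQCRC1, a core protein of complex III, read 11.69, 11.53 and 11.41 against 11.49, 11.26 and 11.45, a difference of +0.15 (SE 0.13). The arrays of SDHC and UQCRC1 overlapped.

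The change of the Fk effect from 12 h to 48 h was tested directly as an interaction. It passed for 0 of 44 members, beside 0% of all genes, and 0 members had an unadjusted p under 0.05. The median interaction was +0.05, and it ranged from -0.24 for SDHD to +0.33 for UQCRC2.

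Some of these genes differed between the 12 h and 48 h vehicle cultures. Between 12 h and 48 h of vehicle, 7 subunit genes fell and 1 rose by limma with adjustment over all genes. All but COX7B belong to complex I, and 4 of the 7 that fell are NDUFB genes of its membrane arm: NDUFB3, NDUFB4, NDUFB7 and NDUFB10. The others were NDUFS6, NDUFA6 and COX7B, and the gene that rose was NDUFB5. Complex I holds 31 of the 44 members tested. By share, 6 of 31 fell in complex I (19.4%), 0 of 3 in II, 0 of 4 in III and 1 of 6 in IV (16.7%). Of 11 NDUFB genes, 4 fell (36.4%), beside 10.9% of all genes. This split within complex I was not part of the planned grouping by complex. The falls were of 1.29-fold to 1.84-fold. This course shares its 48 h control arrays with the Fk comparison at 48 h and its 12 h control arrays with the one at 12 h.

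The 7 that fell are 15.9% of the members, beside 10.9% of all genes that fell, and the 1 that rose is 2.27%, beside 10.6% that rose. In all, 35 of the 44 were lower at 48 h and 9 higher, with a median of -0.16, against +0.01 over all genes, of which 48.5% were lower. All 6 complex IV genes were lower (median -0.23), as were 24 of 31 in complex I (-0.14), 2 of 3 in complex II (-0.21) and 3 of 4 in complex III (-0.14). In complex I, 10 of 11 NDUFB genes and 10 of 12 NDUFA genes were lower, and 3 of 5 core genes. Of the other 3 accessory genes, NDUFS4 and NDUFV3 were higher and NDUFS6 was lower, with a median of +0.23. The median over all members was -0.11 without control 48 h replicate 2, and that of complex I was then -0.08, that of complex II -0.10 and that of complex III -0.09. Complex II was at -0.34 without control 48 h replicate 3, and complex III at -0.09 without control 12 h replicate 3.

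A lower value is a smaller share of the labelled RNA, so less RNA per cell cannot be told apart from fewer cells that carry it. A few cell type markers passed in the same course. Of 7 epithelial and tubule markers tested, KRT8, a keratin, fell (-0.59, SE 0.15, limma adjusted p = 0.0227). EPCAM, an epithelial adhesion protein, rose (+0.58, SE 0.19, limma adjusted p = 0.0492), and 0 of 3 fibroblast genes passed. These counts stand beside 10.9% of all genes that fell and 10.6% that rose. The log2 of the summed signal of that epithelial list lay between 14.79 and 14.91 at 12 h and between 14.74 and 14.87 at 48 h, and that of the fibroblast list between 10.22 and 10.86 and between 9.69 and 11.01. The part of these markers in the result was not tested.

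**Figure D2:**
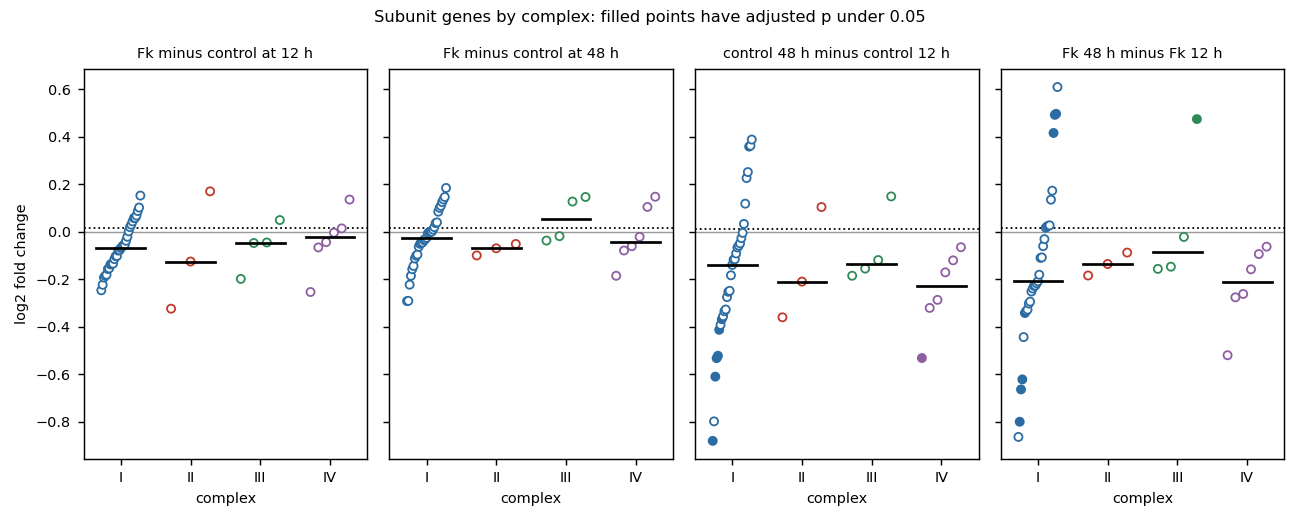
Log2 fold change of each subunit gene (points, 1 probe set per gene, 3 arrays per group) by complex in 4 comparisons; bars mark the median of a complex, the dotted line the median of all 10784 genes, and filled points have a limma adjusted p under 0.05. No point is filled in the 2 panels of Fk against control, and 8 are filled in each of the 2 time courses.

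NDUFB7 read 10.13, 10.13 and 10.41 at 12 h and 9.63, 9.59 and 9.62 at 48 h, a change of -0.61 (SE 0.12, 1.53-fold, limma adjusted p = 0.00741). NDUFS6 read 11.97, 12.05 and 11.87 at 12 h and 11.50, 11.34 and 11.49 at 48 h, a change of -0.52 (SE 0.10, 1.44-fold, adjusted p = 0.00670). NDUFB10 read 11.18, 11.31 and 11.30, then 10.86, 10.53 and 10.82, a change of -0.53 (SE 0.12, 1.45-fold, adjusted p = 0.0148). In all 3 genes the 48 h arrays lay entirely below the 12 h arrays.

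NDUFB3 had the largest fall of the members, -0.88 (SE 0.25, 1.84-fold, limma adjusted p = 0.0303). It read 11.24, 11.37 and 11.30 at 12 h and 10.19, 10.12 and 10.97 at 48 h, so replicate 3 at 48 h lay nearest to the 12 h level. COX7B, a small accessory subunit of complex IV, read 12.61, 12.67 and 12.70, then 12.05, 11.88 and 12.45, a change of -0.53 (SE 0.17, adjusted p = 0.0492). Replicate 3 was again the highest of the 48 h arrays, and no 48 h array of either gene reached a 12 h array. A second, dimmer COX7B probe set (mean log2 value 5.87, against 12.46) gave -0.10 (SE 0.33, adjusted p = 0.868 over all 21899 probe sets tested).

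NDUFB4 read 14.02, 14.07 and 14.04 at 12 h and 13.62, 13.48 and 13.79 at 48 h, a change of -0.41 (SE 0.13, limma adjusted p = 0.0483). NDUFA6, an accessory subunit that binds the acyl carrier protein, read 12.86, 12.92 and 12.85, then 12.51, 12.37 and 12.65, a change of -0.37 (SE 0.12, adjusted p = 0.0492). NDUFB5 rose: it read 12.02, 12.06 and 12.03 at 12 h and 12.41, 12.34 and 12.44 at 48 h, a change of +0.36 (SE 0.11, 1.28-fold, adjusted p = 0.0362). It was the one of 11 NDUFB genes that was higher at 48 h, and the arrays of these 3 genes did not overlap between times. With adjustment over all probe sets in place of genes, an alternative added after the data were seen, limma no longer called COX7B (0.0578), NDUFB4 (0.0578) or NDUFA6 (0.0595). Second probe sets of NDUFB10 (-0.38, adjusted p = 0.117 over all probe sets) and NDUFA6 (-0.48, adjusted p = 0.0950) were lower at 48 h too, without passing.

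Other members did not pass. NDUFA2, a small accessory subunit, had the second largest negative value, -0.80 (SE 0.30, limma adjusted p = 0.0804), with 11.23, 11.32 and 11.51 at 12 h and 10.19, 10.31 and 11.17 at 48 h. SDHA read 10.70, 10.86 and 10.77, then 10.22, 10.22 and 10.81, a difference of -0.36 (SE 0.17, adjusted p = 0.164). In NDUFA2 and SDHA, replicate 3 at 48 h stood well above the other 2 arrays, and in SDHA it overlapped the 12 h arrays.

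In complex III, UQCRB, a small subunit, read 13.65, 13.76 and 13.60 at 12 h and 13.41, 13.46 and 13.59 at 48 h, a difference of -0.18 (SE 0.12, limma adjusted p = 0.312). NDUFV3, a small accessory subunit of the NADH-oxidizing part, had the largest positive value, +0.39 (SE 0.24, adjusted p = 0.270), with 8.84, 8.75 and 8.97, then 9.54, 9.19 and 9.01. A second NDUFV3 probe set (mean log2 value 7.40, against 8.98) gave +0.06 (SE 0.11). NDUFS1 followed at +0.36 (SE 0.12, adjusted p = 0.0566), with 11.40, 11.22 and 11.31, then 11.83, 11.54 and 11.64. The groups of these 3 genes did not overlap, but all 3 missed the threshold.

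Single arrays moved the count of genes that fell, by over 1.5 times from 7. It was 2 without control 12 h replicate 2, control 12 h replicate 3 or control 48 h replicate 2, 3 without control 12 h replicate 1 or control 48 h replicate 1, and 4 without Fk 12 h replicate 1, Fk 12 h replicate 2 or Fk 48 h replicate 2. It was 11 without control 48 h replicate 3. NDUFB5, the 1 that rose, did not pass without Fk 12 h replicate 2, Fk 48 h replicate 2 or any 1 of the 6 control arrays. NDUFS6 passed in all 24 alternative settings that gave it a value and NDUFB7 in 22 of 23, while NDUFB10 passed in 20 of 23, NDUFB3 in 17 of 23, NDUFB5 in 15 of 24, NDUFA6 in 12 of 24, NDUFB4 in 11 of 23 and COX7B in 10 of 24.

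**Figure D3:**
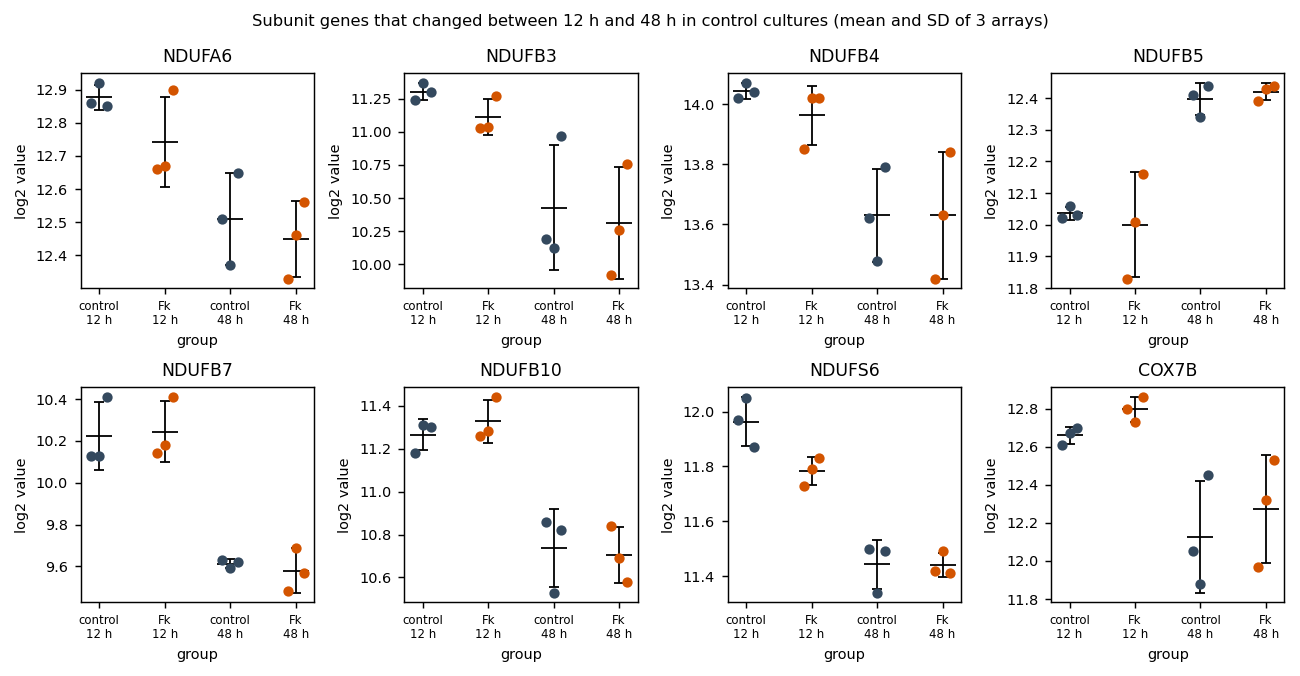
GCRMA log2 values of the 8 subunit genes that passed in the control time course, by group; points are single arrays, wide bars the mean and whiskers the SD of 3 arrays, and each panel has its own axis. In all 7 genes that fell, both 48 h groups lie below both 12 h groups, narrowly in NDUFB3, NDUFB4, NDUFA6 and COX7B. In NDUFB5 both 48 h groups lie above.

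The promoters of genes that fell together are shown so that their sequence can be read beside these values. Each is the 150 bases before the gene's RefSeq start (GRCh38.p14), 5′ to 3′ on the strand of the gene, with matches to 4 motifs in capitals. The motifs, searched on both strands, were CGCANGCG for NRF1, CCGGAAG for ETS factors such as GABP, AAGATGGC for YY1 and AAGGTCA for estrogen-related receptors (ERR). These are regulators known to act on mitochondrial genes. NDUFS6 lies at chr5:1801257-1801406 (plus strand), NDUFA6 at chr22:42090773-42090922 (minus strand), NDUFB4 at chr3:120596186-120596335 (plus strand), NDUFB7 at chr19:14572067-14572216 (minus strand) and NDUFB3 at chr2:201071851-201072000 (plus strand). NDUFB3, the largest fall, is shown because its window held none of the 4 motifs.
NDUFS6: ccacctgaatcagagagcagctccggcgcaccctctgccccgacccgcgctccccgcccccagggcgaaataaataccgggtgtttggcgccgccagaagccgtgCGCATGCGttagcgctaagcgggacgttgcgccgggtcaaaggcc
NDUFA6: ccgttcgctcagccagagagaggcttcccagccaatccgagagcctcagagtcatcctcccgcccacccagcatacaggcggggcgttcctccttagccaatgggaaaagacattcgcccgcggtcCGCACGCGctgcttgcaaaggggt
NDUFB4: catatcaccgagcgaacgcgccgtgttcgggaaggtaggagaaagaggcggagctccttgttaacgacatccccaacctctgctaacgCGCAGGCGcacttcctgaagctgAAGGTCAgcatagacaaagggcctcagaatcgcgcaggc
NDUFB7: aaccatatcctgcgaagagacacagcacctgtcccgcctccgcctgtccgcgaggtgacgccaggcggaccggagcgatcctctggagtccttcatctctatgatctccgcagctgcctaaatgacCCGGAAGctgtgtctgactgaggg
NDUFB3: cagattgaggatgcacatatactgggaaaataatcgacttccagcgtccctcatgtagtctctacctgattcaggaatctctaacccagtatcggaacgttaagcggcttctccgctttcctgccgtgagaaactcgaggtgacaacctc

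NDUFS6 and NDUFA6 each hold an NRF1 match here, NDUFB4 an NRF1 and an ERR match, and NDUFB7 an ETS match. Over the full window of 250 bases before to 50 after the start, NDUFS6 also held an ERR match and NDUFA6 a YY1 match. NDUFB4 held 3 NRF1 matches in that window. There NDUFB10 and COX7B held none of the 4 motifs, like NDUFB3. RefSeq windows matched 39 of the 44 members, and NDUFB5 was not among them. NRF1 letters were found in 12 members (30.8%), beside 10.04% of 35116 windows and 20.14% of the 8921 windows of genes tested. ETS letters were in 10 (25.6%), beside 10.26% and 20.31%. YY1 letters were in 7 (17.9%), beside 2.888% and 5.84%, and ERR letters in 6 (15.4%), beside 3.921% and 2.287%. A match is only these letters in this window, and overlaps between motifs were not removed.

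The Fk cultures gave another time course, which was added after the data were seen. It shares no array with the control course, but both were fitted with the same estimate of spread from all 12 arrays. At 48 h, same-numbered Fk and control arrays correlated at 0.798, -0.025 and 0.606 in their deviations from group means. The courses are therefore not independent of each other. From 12 h to 48 h of Fk, NDUFB3, NDUFB7, NDUFB10 and NDUFS6 fell, which is 4 of 44 (9.09%), beside 11.7% of all genes. NDUFB5, NDUFS1, NDUFS4 and UQCRC2 rose, also 4 of 44 (9.09%), beside 11.5%. All 4 that fell had fallen in control, and of the 4 that rose, NDUFB5 had risen in control. The number that fell was 2 without Fk 12 h replicate 1, Fk 48 h replicate 1, Fk 48 h replicate 2 or control 12 h replicate 1, 6 without Fk 48 h replicate 3 and 7 without control 48 h replicate 3. The number that rose was 0 without Fk 48 h replicate 2, 1 without Fk 12 h replicate 1, and 2 without Fk 12 h replicate 2, Fk 48 h replicate 1 or control 12 h replicate 1.

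Most members had the same sign in both courses. Of 44, 32 were lower at 48 h in both, 8 higher in both and 4 opposite, and over all genes 19% were opposite. The median with Fk was -0.16, with -0.21 for complex I, -0.14 for II, -0.08 for III and -0.21 for IV. Without Fk 12 h replicate 3, the array that stood apart, it was -0.07, with -0.09 for complex I, -0.04 for III and -0.10 for IV. Without Fk 48 h replicate 1 it was -0.10, with -0.06 for complex II and -0.14 for IV, and complex II was at -0.20 without Fk 48 h replicate 3.

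A few markers passed with Fk over time as well. KRT8 fell (-0.56, SE 0.15, limma adjusted p = 0.0258), as 1 of 7 epithelial and tubule markers. COL1A1, a fibrillar collagen, fell (-0.87, SE 0.19, limma adjusted p = 0.0104), as 1 of 3 fibroblast genes. Over all genes, 11.7% fell and 11.5% rose. The log2 of the summed signal lay between 14.72 and 15.01 at 12 h and between 14.80 and 14.88 at 48 h for the epithelial list, and between 10.76 and 11.10 and between 9.82 and 11.00 for the fibroblast list. Their part in the result was not tested.

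NDUFB7 with Fk read 10.14, 10.18 and 10.41 at 12 h and 9.48, 9.69 and 9.57 at 48 h, a change of -0.66 (SE 0.12, 1.58-fold, limma adjusted p = 0.00485). NDUFB10 read 11.26, 11.28 and 11.44, then 10.84, 10.69 and 10.58, a change of -0.62 (SE 0.12, adjusted p = 0.00717). Both passed in all 23 alternative settings that gave them a value, and neither gene's groups overlapped. NDUFB3 read 11.03, 11.04 and 11.27, then 9.92, 10.26 and 10.76, a change of -0.80 (SE 0.25, adjusted p = 0.0404). NDUFS6 read 11.73, 11.79 and 11.83, then 11.42, 11.49 and 11.41, a change of -0.34 (SE 0.10, adjusted p = 0.0333). In NDUFB3 and NDUFS6, too, all 48 h arrays were below the 12 h arrays.

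NDUFS1 read 11.10, 11.11 and 11.17 at 12 h of Fk and 11.80, 11.62 and 11.45 at 48 h, a rise of +0.50 (SE 0.12, 1.41-fold, limma adjusted p = 0.0172). NDUFS4, an accessory subunit needed for a stable NADH-oxidizing part of complex I, rose by +0.49 (SE 0.15, adjusted p = 0.0390), and UQCRC2 by +0.48 (SE 0.14, adjusted p = 0.0352). NDUFB5 read 11.83, 12.01 and 12.16, then 12.39, 12.43 and 12.44, a rise of +0.42 (SE 0.11, adjusted p = 0.0200). In these 4 genes no 12 h array reached a 48 h array.

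The members did not vary as 1 block. Over the 12 arrays, the Pearson correlation of a member with the mean of the other members was highest for NDUFS3 (0.961), NDUFA6 (0.921) and NDUFV2 (0.921), the last an iron-sulfur core subunit. It was negative for 8 members, NDUFS1 (-0.58), NDUFB5 (-0.483), NDUFV3 (-0.416), NDUFS4 (-0.292), NDUFA5 (-0.266), NDUFV1 (-0.212), UQCRC2 (-0.182) and NDUFA10 (-0.121). These are descriptions over arrays that share 4 groups, with no test. The largest range over arrays was that of NDUFA2, 1.68 log2 units, from 10.09 on Fk 48 h replicate 1 to 11.77 on Fk 12 h replicate 3.

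**Figure D4:**
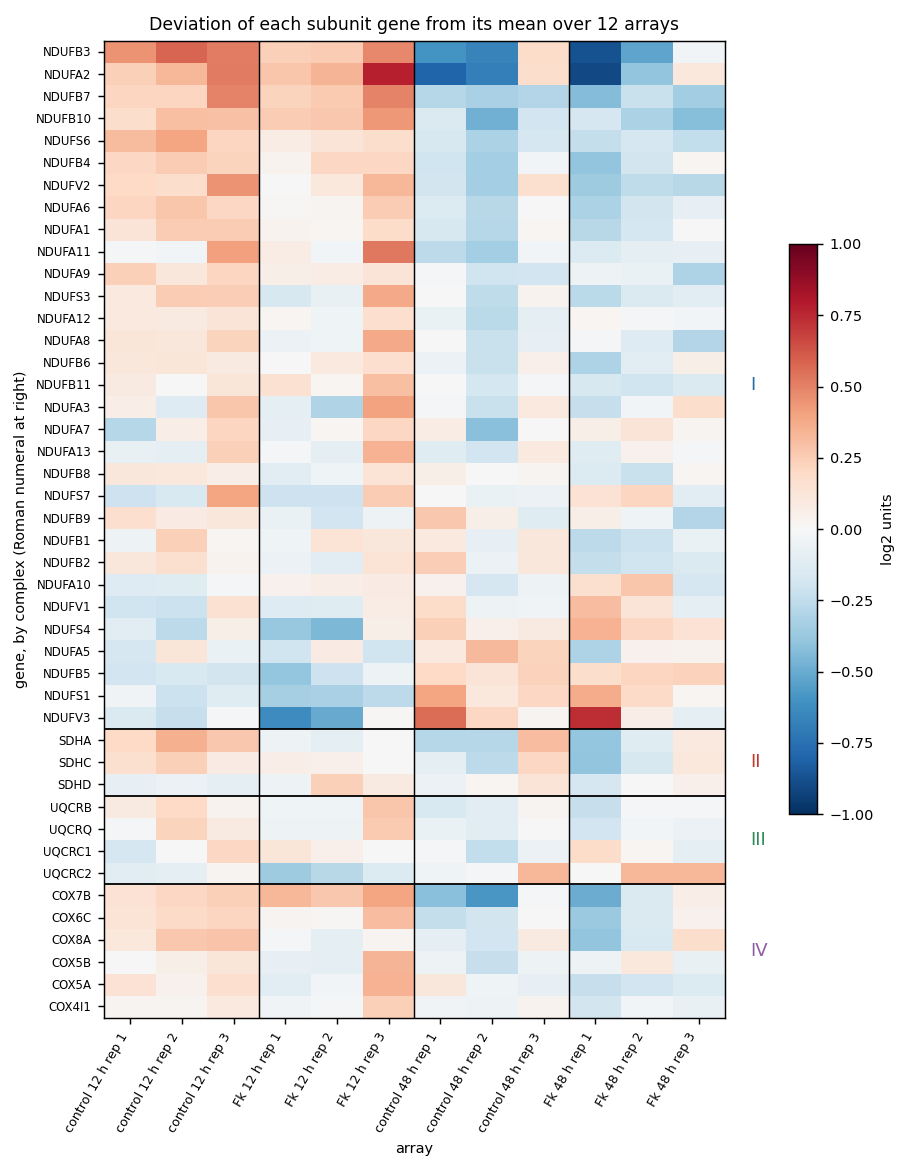
Deviation of each subunit gene (rows, by complex) from its own mean over 12 arrays (columns), in log2 units; red is higher and blue lower. Most rows of complexes I and IV are red on the control 12 h arrays and blue on most 48 h arrays, while NDUFS1 and NDUFB5 show the opposite, and all 6 COX genes are red on Fk 12 h replicate 3.

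The median deviation of the 44 genes from their 12-array means was 0.098, 0.112 and 0.186 on the control 12 h arrays and -0.037, -0.020 and 0.190 on the Fk 12 h arrays. At 48 h it was -0.047, -0.196 and 0.022 in control and -0.188, -0.107 and -0.048 with Fk. The array numbered 3 was the highest of each group. On Fk 12 h replicate 3 all 6 complex IV genes were above their means, with a median of 0.321.

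**Figure D5:**
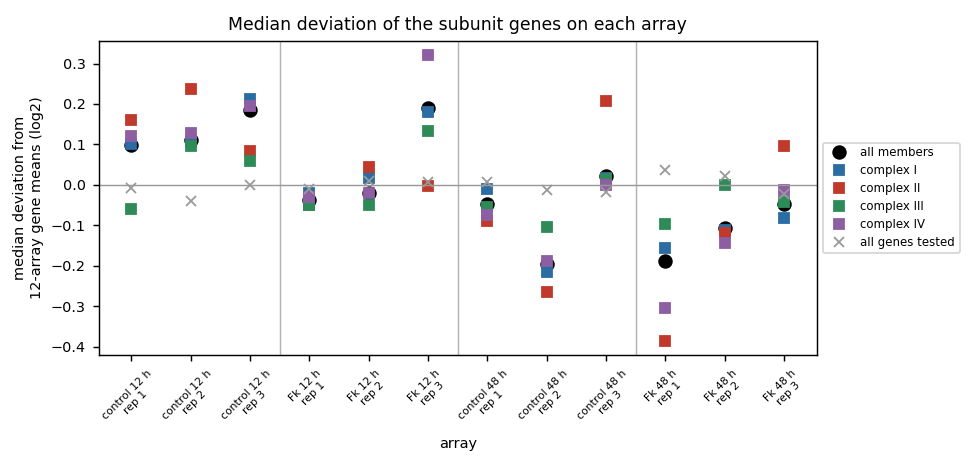
Median deviation (log2) of the subunit genes from their 12-array means on each array, for all 44 members, for each complex and for all genes tested. The 3 control arrays at 12 h and Fk 12 h replicate 3 lie highest for all members (0.098 to 0.190), and all genes stay near 0.

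Of the rest of the pathway, no gene of 7 further lists passed for Fk at 12 h or at 48 h, beside 0% of all genes. For the control time course, the counts below stand beside the shares of all genes already given, 10.9% that fell and 10.6% that rose. Of 11 tested subunits of complexes I to IV outside the member list, 0 fell and 1 rose: COX7A2L, which helps join complexes III and IV (+0.54, SE 0.16, limma adjusted p = 0.0352). NDUFAB1, the mitochondrial acyl carrier protein, was at -0.49 (adjusted p = 0.0594) and UQCR10 at -0.50 (adjusted p = 0.0737).

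Of 17 ATP synthase genes, 16 were lower at 48 h, with a median of -0.25, and 1 passed: ATP5MC1, for the membrane ring subunit c (-1.19, SE 0.27, 2.28-fold, limma adjusted p = 0.0137). ATP5MC3, another gene for the same subunit, was at -0.66 (adjusted p = 0.0667), and ATP5MJ at -0.32 (adjusted p = 0.107). Of 41 mitochondrial ribosomal protein genes, 33 were lower, with a median of -0.29. In that list 9 fell, MRPS17 (-0.74, adjusted p = 0.00427), MRPL18 (-0.69, adjusted p = 0.00742), MRPL16 (-0.96), MRPL20 (-0.62), MRPL27 (-0.62), MRPS28 (-0.78), MRPL23 (-0.76), MRPL11 (-0.59) and MRPS7 (-0.35), and 1 rose, MRPS6 (+1.10, adjusted p = 0.00305).

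Assembly factors were split, with a median of +0.05 over 42 genes, 3 that fell and 2 that rose. COX16 (-1.16, limma adjusted p = 0.0182) and PET100 (-1.26, adjusted p = 0.0309), both for complex IV, fell, and so did COX20 (-0.40). LRPPRC, which stabilizes mitochondrial messenger RNA (+0.48, adjusted p = 0.0207), and SDHAF4 (+0.62) rose. SDHAF3, a complex II factor, was lower with Fk at 48 h (-0.69, SE 0.18) without passing (limma adjusted p = 0.568).

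Of 16 regulators of mitochondrial biogenesis, 1 fell and 0 rose: POLG, the mitochondrial DNA polymerase (-0.45, SE 0.12, limma adjusted p = 0.0275). TFAM, which packages and transcribes mitochondrial DNA, was at -0.40 (adjusted p = 0.0661) and MTERF3 at -0.48 (adjusted p = 0.0517). Of 22 tricarboxylic acid cycle and pyruvate entry genes, 15 were higher at 48 h, with a median of +0.09. PDK1, the kinase that inhibits pyruvate dehydrogenase, rose (+0.73, SE 0.16, adjusted p = 0.0132), IDH3B fell (-0.40, adjusted p = 0.0417), and SUCLG2 was at +0.43 (adjusted p = 0.0510). PDK1 was above control on all Fk arrays at both times, by 0.42 (SE 0.16) and 0.48 (SE 0.16), with limma adjusted p-values of 0.710 and 0.772. Of all genes, 9.91% lay above in this way at 12 h and 6.14% at 48 h. PDHB of the same list lay below control on all Fk arrays at both times, also without passing. It read 10.83, 10.98 and 10.82 against 11.06, 11.09 and 11.11 at 12 h. At 48 h it read 10.92, 10.96 and 10.98 against 11.02, 11.04 and 11.24. Of all genes, 6.49% and 4.02% lay below.

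Among 14 genes for electron carriers and coenzyme Q synthesis, PDSS1, which helps make the side chain of coenzyme Q, fell (-2.03, SE 0.42, 4.09-fold, limma adjusted p = 0.00897). COQ6 (+0.45, adjusted p = 0.0580) and COQ3 (-0.45, adjusted p = 0.0592) did not pass, and no gene of the list rose.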

How the data were processed

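Total RNA of HK-2 cells was measured on 12 one-colour expression arrays, 3 in each of 4 groups taken from the sample titles. The deposited values are log2 values per probe set, made by the authors with GCRMA per the submitters' processing notes; the version is not given in the sources used here. GCRMA adjusts background from probe sequence and equalizes the distributions of the arrays, so a level is relative to the other RNA on an array and differences shared by all genes cannot be seen. Array medians ran from 2.85 to 2.94. The number of arrays limits the precision.

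Of 54675 probe sets, 41097 carry 1 gene symbol in the platform annotation, 1801 several and 11777 none. Each gene was read from its brightest probe set with 1 symbol, and tested if it reached 4 on at least 3 arrays. A mean per group was fitted over all 12 arrays with limma 3.58.1 in R 4.3.3 (lmFit and eBayes, 8 residual and 2.44 prior degrees of freedom). P-values are two-sided, with Benjamini-Hochberg adjustment over 10784 genes and a threshold of 0.05. The fit was tested on simulated data. No array column lay outside the 12 samples.

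Members given with values on every array were, per comparison, the one with the smallest p in each complex (3 in complex I) and the largest difference in each direction. Members that passed are also given, and NDUFA2, NDUFS3 and the Fk time course were chosen after their values were seen. From each other list, 3 genes with the smallest p are named, and passing genes beside them. PDHB was added after its values were seen, since it lay opposite to PDK1. Another 25 settings were tried, of which 12 left out 1 array; their effect is described after the results. The members and lists were chosen with earlier results of these data known, so nothing here is independent support for those results. Sequences come from RefSeq promoter windows (GRCh38.p14). Tables were handled with pandas 2.3.3 and figures drawn with matplotlib 3.10.9 in Python 3.11.15.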

Additional observations from a re-analysis of the deposited data

How the results depend on the processing

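No subunit gene passed for Fk against control at 12 h or 48 h in any of the 25 settings. The median Fk difference ran from -0.15 to -0.004 at 12 h and from -0.08 to +0.05 at 48 h, where array quality weights gave +0.05 and leaving out 1 array gave up to +0.03. For SDHC at 48 h, leaving out 1 array gave between -0.229 and +0.0295. The median of the control time course ran from -0.20 to -0.11 over 24 settings. The number of members that fell in it was 7 in the reported fit, 1 without _s_at and _x_at probe sets, 4 with quantile normalization, 20 with array quality weights, 11 at an adjusted p of 0.10, and 2 to 11 with 1 array left out. Without _s_at and _x_at probe sets only 26 members were measured, NDUFB3, NDUFB4, NDUFB7 and NDUFB10 were not among them, and UQCRB turned to +0.13. The number that rose was 1 in the reported fit, 0 with arrays centred on their median, 2 with trend and robust moderation, with array quality weights or at an adjusted p of 0.10, and 0 to 2 with 1 array left out. The causes were not tested. In the Fk time course 2 to 10 members fell and 0 to 5 rose over its settings. With the replicate number as a replicate block, 10 members fell and 2 rose in the control time course and none passed for Fk; a block within time could not be fitted for the time courses. The replicate numbers were not used as pairs in the reported fit. Deviations of same-numbered Fk and control arrays correlated at 0.041, 0.265 and 0.163 at 12 h, where each array correlated best with its own number. At 48 h they correlated at 0.798, -0.025 and 0.606, and replicates 1 and 3 matched their own number best but replicate 2 did not. Any variation shared by number stays in the spread of that fit. With 3 arrays per group, the half-width of a member's 95% interval ran from 0.221 for NDUFS6 to 0.660 for NDUFA2, with a median of 0.292, which limits how small a difference could be resolved for each gene.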

Other observations

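Probe sets that name more than 1 gene cover some members left out above. One shared by NDUFS5 and RPL10 was lower at 48 h than at 12 h in control by 0.81 on the log2 scale (SE 0.25, limma adjusted p = 0.0512 over all probe sets), and another shared by PTPMT1 and NDUFS3 fell by 0.43 (SE 0.12, adjusted p = 0.0361). The probe set shared by UQCRHL and UQCRH gave -0.16 (SE 0.13), and 3 that name NDUFS8 with microRNA genes gave between -0.18 and +0.15. Signals of the genes that share a probe set cannot be told apart, and none was used in the counts.

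Transcripts of mitochondrial DNA were looked at after the other values were seen. Of 7 genes with a probe set (COX1, COX2, COX3, ND2, ND4, ND6 and ATP6), none passed in either Fk comparison or in the control time course. Of all genes, 0% passed in the Fk comparisons, and 10.9% fell and 10.6% rose in the control course. In control, 6 of 7 were higher at 48 h, with a median of +0.09, and with Fk at 48 h all 7 were lower than control, with a median of -0.11. Over all genes these medians were +0.01 and +0.02, and 48.5% and 46.2% of genes were lower. COX1, COX2, ND2, ND4 and ATP6 had mean log2 values of 15.10 to 15.80, and a value of COX1 was the highest of any gene on any array, so these differences lie at the top of the scale, where they can be compressed, and their sizes are not set against those of the nuclear members. COX3 had the largest of these differences, -0.61 (SE 0.31), with 9.59, 10.30 and 10.08 on the Fk arrays and 10.40, 10.82 and 10.58 on the control arrays.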
